A study of Mus musculus with 2 samples.

Results

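The genes that set the balance between fusion and fission of mitochondria were followed at their promoters in single-cell ATAC-seq libraries of mouse back skin. The group has 10 genes, Opa1, Mfn1, Mfn2, Dnm1l, Fis1, Mff, Mief1, Mief2, Oma1 and Yme1l1. Their promoter regions were the regions with a peak in both libraries that lay within 500 bp of the start of a protein-coding transcript in mm10 (GRCm38). All 10 genes had such a region, and Fis1 had 2, so the group holds 11 of 18975 promoter regions and 10 of 15877 genes with one. All 10 passed the minimum of 20 sites in both main cell classes. 1 further peak within this distance, at a downstream start of Mfn2 (chr4:147903151-147903765), was called only in the MOF cKO library.

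The Control library and the MOF cKO library came from back skin of E16.5 embryos, 1 library per genotype. MOF (Kat8) is the acetyltransferase of lysine 16 of histone H4. The MOF cKO genotype is labelled MOFfl/fl/K14Cre, in which Cre from the Krt14 promoter acts in epithelial cells, and Controls were littermates. Both libraries were of mixed C57Bl/6J and CD-1 background, and by the study's methods a K14-H2BGFP reporter marked epithelial cells for sorting. Cells positive and negative for GFP were recombined at 5:1 by the labels, and the sources give different ratios, so shares of cell classes are set by the sort. With 1 library per genotype no difference was tested, and animals, sort and library preparation cannot be told apart from the genotype. Every interval in brackets is a 95% interval that covers counting error only.

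The Control library held 2541 barcodes, of which 2481 were kept, and the MOF cKO library 4348, all kept, with medians of 62973 and 66239.5 transposition sites in peaks per barcode. The libraries had 21 barcodes in common. Cells were named epithelial-like (1382 Control and 2640 MOF cKO) or fibroblast-like (658 and 1254) from promoter accessibility of marker genes such as Krt5 and Krt14 or Col1a2 and Lum. Smaller groups were immune-like (46 and 281), mural-like (19 and 69) and endothelial-like cells (9 and 26). A cluster of 30 Control and 54 MOF cKO cells met the marker rule for melanocytes, with 4 of 8 markers (Dct, Mlana, Slc45a2 and Gpr143). That name was not kept, since glial genes such as Gjc3, Gpr17 and Foxd3 were among its leading genes beside Dct. It is called Gjc3-led here. Epithelial-like clusters held cells of mainly 1 genotype, and 39 cells from MOF cKO fell into those of Control. The fibroblast-like clusters held 220, 433 and 5 Control cells and 681, 105 and 468 MOF cKO cells. The make-up of that class thus differed between the libraries, and its effect on the changes was not tested. A cluster of 313 shallow Control cells with epithelial markers stayed unnamed. The Kat8 promoter had a log2 change of -0.41 (epithelial-like) and -0.10 (fibroblast-like), which does not check the deletion, since the floxed gene can be lost with its promoter in place.

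Mitochondria fuse and divide continuously, and GTPases of the dynamin family drive both events. Mfn1 and Mfn2 join the outer membranes of neighboring mitochondria and Opa1 joins the inner membranes. Opa1 is cut by the inner membrane proteases Oma1 and Yme1l1, and this cleavage sets how much fusion-competent Opa1 is present. Dnm1l (Drp1) is a cytosolic GTPase that constricts mitochondria after it is recruited to the outer membrane by Mff, Mief1 (MiD51) and Mief2 (MiD49), with Fis1 as a further outer membrane adaptor.

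The promoter windows printed here are those of Opa1, which the study used as an example gene, of Fis1 and Dnm1l, the genes with the lowest and the highest change in epithelial-like cells, and of Mfn2, which had the lowest among the fusion GTPases. They run from 250 bases before to 50 after a RefSeq start in GRCm38.p6, 5′ to 3′ on the strand of the gene. Capitals mark matches on either strand to 11 short motifs that are named with their letters further on. For Mfn2 and Dnm1l the window printed is at the most downstream of the starts listed. All 15 windows listed for the 10 genes were identical to the genome at their coordinates.
Opa1 (chr16:29579084-29579383, plus strand): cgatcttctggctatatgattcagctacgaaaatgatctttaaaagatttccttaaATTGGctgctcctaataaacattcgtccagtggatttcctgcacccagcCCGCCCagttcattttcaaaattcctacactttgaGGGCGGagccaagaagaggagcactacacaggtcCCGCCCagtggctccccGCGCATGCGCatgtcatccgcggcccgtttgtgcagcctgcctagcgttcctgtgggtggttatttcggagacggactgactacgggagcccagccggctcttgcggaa
Mfn2 (chr4:147904612-147904911, minus strand): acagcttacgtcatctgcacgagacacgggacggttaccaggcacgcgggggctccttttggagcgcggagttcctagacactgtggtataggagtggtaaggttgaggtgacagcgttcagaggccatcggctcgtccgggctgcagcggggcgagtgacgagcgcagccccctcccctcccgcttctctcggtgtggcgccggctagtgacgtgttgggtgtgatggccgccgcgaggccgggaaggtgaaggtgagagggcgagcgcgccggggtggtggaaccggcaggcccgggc
Dnm1l (chr16:16358526-16358825, minus strand): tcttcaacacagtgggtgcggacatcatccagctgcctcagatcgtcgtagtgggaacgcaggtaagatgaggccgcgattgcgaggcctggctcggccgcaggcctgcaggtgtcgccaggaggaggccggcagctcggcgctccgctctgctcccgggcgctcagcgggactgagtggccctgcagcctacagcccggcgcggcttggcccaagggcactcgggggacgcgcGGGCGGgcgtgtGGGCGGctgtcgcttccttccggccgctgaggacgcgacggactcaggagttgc
Fis1, upstream start (chr5:136953025-136953324, plus strand): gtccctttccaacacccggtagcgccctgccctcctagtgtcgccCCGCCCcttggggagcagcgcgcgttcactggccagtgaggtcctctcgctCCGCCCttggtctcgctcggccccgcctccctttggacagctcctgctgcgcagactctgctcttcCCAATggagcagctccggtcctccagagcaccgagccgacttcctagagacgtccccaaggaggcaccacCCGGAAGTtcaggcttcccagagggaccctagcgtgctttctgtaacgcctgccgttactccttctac
Fis1, downstream start (chr5:136961827-136962126, plus strand): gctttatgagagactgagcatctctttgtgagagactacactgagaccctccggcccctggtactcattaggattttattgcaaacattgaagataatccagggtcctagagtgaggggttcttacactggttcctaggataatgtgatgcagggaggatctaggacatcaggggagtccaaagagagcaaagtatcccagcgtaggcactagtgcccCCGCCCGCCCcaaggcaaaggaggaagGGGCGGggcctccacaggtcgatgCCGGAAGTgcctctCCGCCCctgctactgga

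In epithelial-like cells all 10 promoters were less accessible in MOF cKO than in Control, by 18.4% to 34.6%. The level is given as CPM, the sites of a gene's promoter regions per 1000000 sites in all shared regions of that class and library. Opa1 had 27.0 CPM (25.7 to 28.4) in Control and 21.2 (20.3 to 22.1) in MOF cKO, a log2 change of -0.35 (-0.45 to -0.26). The median log2 change of the 10 genes was -0.41, and that of 15862 genes with a value was also -0.41. Of the members 5 of 10 lay below that median. With cells thinned to 5000 sites the members' median minus that of all promoters was -0.13. Lower accessibility in MOF cKO was found for 85.8% of all promoters, against 10 of 10 members. A difference of at least 1.5-fold downward was found for 18.4% of all promoters and for 1 of 10 members, Fis1. At least 1.5-fold upward stood 4.34% of all promoters and 0 of 10 members. Summed over the members the level was 406.5 CPM in Control and 294.9 in MOF cKO, a log2 change of -0.46 (-0.49 to -0.44). The size depends on the total used for scaling. Scaled to distal shared regions the median was -0.66 for the members and also -0.66 for all promoters, and 9 of 10 members and 63.4% of all promoters were at least 1.5-fold lower. By median-of-ratios size factors the medians were -0.25 and -0.26, with 0 of 10 members and 7.46% of all promoters that much lower. Another total moves all promoters alike, so these counts say nothing particular to the members.

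**Figure D1:**
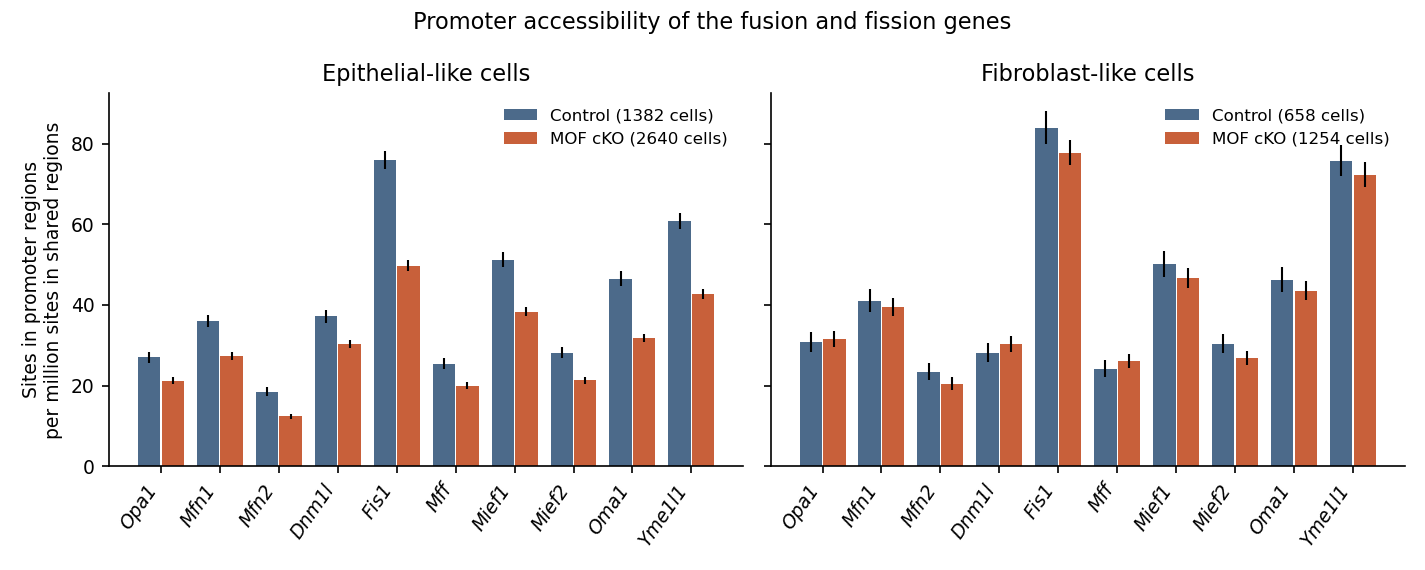
Promoter level of each gene (CPM) in epithelial-like (left) and fibroblast-like cells (right), with bars for the 1 Control and the 1 MOF cKO library and 95% counting intervals as lines. In epithelial-like cells the MOF cKO bar is lower for all 10 genes, and in fibroblast-like cells the bars differ by 13.1% or less.

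Among the fusion GTPases, Mfn2 differed most. Its promoter had 18.5 CPM (17.4 to 19.6) in Control epithelial-like cells and 12.3 (11.7 to 13.0) in MOF cKO, a log2 change of -0.58 (-0.70 to -0.46) that was lower than in 81.1% of genes. Mfn1, its paralog, had 36.0 CPM in Control and 27.2 in MOF cKO, a log2 change of -0.40 (-0.48 to -0.32). The interval of Mfn2 overlapped with that of Mfn1 and did not overlap with that of Opa1.

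The proteases that cut Opa1 both lay below the median of all promoters. Oma1, which is activated by stress, had 46.5 CPM in Control and 31.8 in MOF cKO, a log2 change of -0.55 (-0.62 to -0.47). Yme1l1, the constitutive protease, had 60.8 CPM in Control and 42.8 in MOF cKO, a log2 change of -0.51 (-0.57 to -0.44). The Yme1l1 region also lies at a start of Mastl, so its sites cannot be assigned to one of these genes.

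The fission genes held both ends of the range. Dnm1l, the fission GTPase itself, had 37.1 CPM (35.6 to 38.7) in Control and 30.3 (29.3 to 31.4) in MOF cKO, and its log2 change of -0.29 (-0.37 to -0.21) was the smallest of the 10. Mff, its main receptor, had 25.4 and 19.9 CPM, a log2 change of -0.35 (-0.45 to -0.25). Fis1 had 75.9 CPM (73.7 to 78.2) in Control and 49.7 (48.3 to 51.0) in MOF cKO, a log2 change of -0.61 (-0.67 to -0.55). The intervals of Dnm1l and Fis1 did not overlap, but these genes were picked as the highest and the lowest of the 10. Among all promoters their changes stood at percentiles 68.6 and 15.4. Mief1 and Mief2 lay between Dnm1l and Fis1, at -0.42 (-0.49 to -0.35) and -0.40 (-0.49 to -0.31). The Mff region also covers a start of the noncoding gene C430014B12Rik, and the Mief2 region that of Mir5100.

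Both promoter regions of Fis1 were lower. The region at the upstream start (chr5:136952746-136953594) had 45.3 CPM in Control and 30.5 in MOF cKO, a log2 change of -0.57 (-0.65 to -0.50). The region at the downstream start (chr5:136961865-136962706) had 30.6 and 19.1 CPM, a log2 change of -0.68 (-0.77 to -0.58). Counted at the most 5′ start alone, Fis1 no longer differed by 1.5-fold, and 0 of 10 members did. Mfn2, at -0.58, was just short of 1.5-fold.

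Fibroblast-like cells, which this Cre does not target, differed less at the same promoters. Opa1 had 30.7 CPM (28.3 to 33.3) in Control and 31.5 (29.5 to 33.5) in MOF cKO, a log2 change of 0.03 (-0.11 to 0.18). The median log2 change of the members was -0.08, against -0.03 over 15737 genes. The level was lower in MOF cKO for 7 of 10 members and for 58.5% of all promoters. None of the 10 differed by at least 1.5-fold, while 2.52% of all promoters were that much lower and 4.44% that much higher. The members ranged from -0.20 (-0.38 to -0.03) for Mfn2 to 0.11 (-0.04 to 0.26) for Dnm1l. The intervals of Mfn2, Mief2 and Fis1 lay below 0, and those of the other 7 included 0. The share of all promoters with an interval below 0 was not counted. Fis1 sums 2 regions, and the interval of each region alone included 0 (-0.22 to 0.03 and -0.27 to 0.008). Signs this small depend on the counting, since 2 of 10 members were lower when each nonzero value was counted once, beside 41.8% of all promoters. With cells thinned to 5000 sites 5 of 10 were lower, beside 53.3%. Per cell 10 of 10 were lower, with a median of -0.36, beside 90.0% and a median of -0.31 over all promoters.

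**Figure D2:**
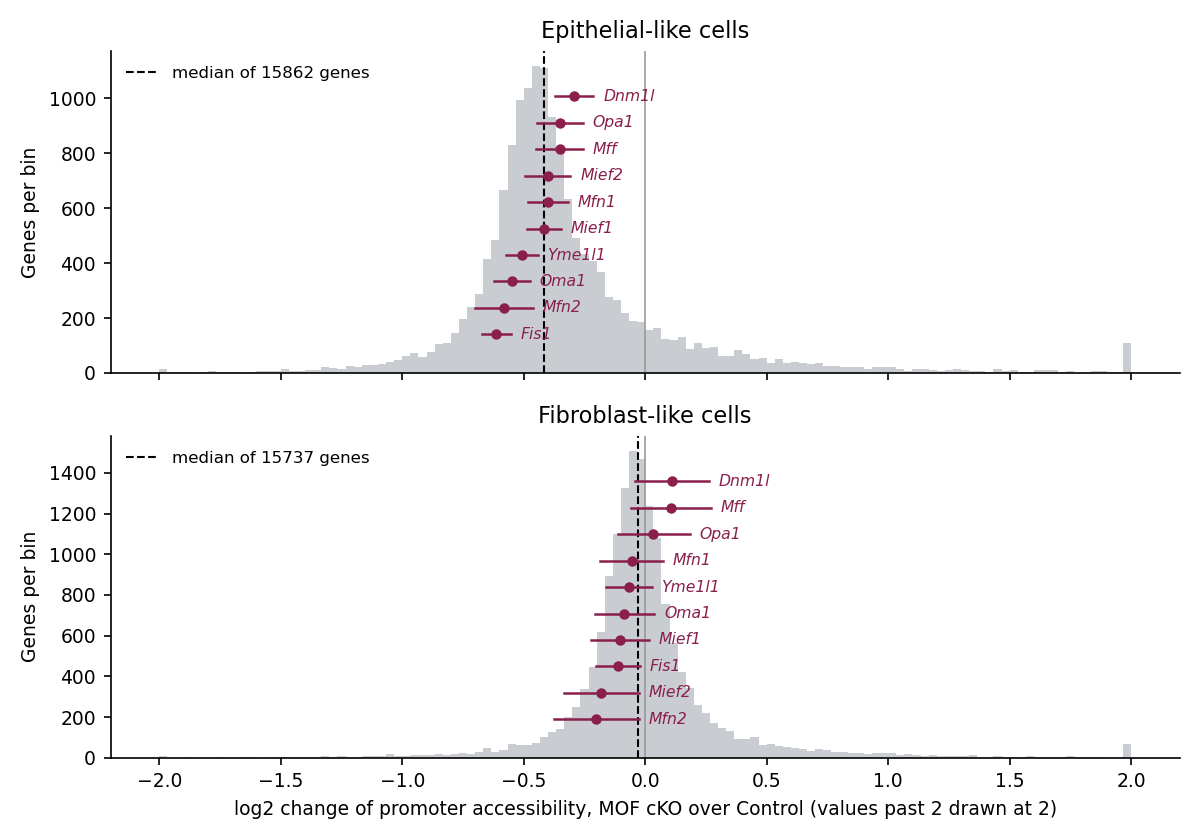
Log2 change of promoter accessibility, MOF cKO over Control, for all genes with a value (grey histogram, genes per bin, median dashed) and for the 10 members (points with 95% counting intervals, stacked for legibility) in epithelial-like (top) and fibroblast-like cells (bottom). In epithelial-like cells the 10 members sit between -0.61 and -0.29 around the median of -0.41, and in fibroblast-like cells between -0.20 and 0.11.

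The changes were also set against those of other promoters in the same class. Measured from the median of all promoters in the same class, Dnm1l stood 0.12 log2 units above it in the epithelial-like class and 0.14 above it in the fibroblast-like class. Opa1 stood 0.06 above it in both classes. Mfn2 stood at -0.17 in both, and Fis1 at -0.20 and -0.08. Mief2 stood at 0.014 in the epithelial-like and at -0.15 in the fibroblast-like class. The other 5 stood between -0.13 and 0.06 in the epithelial-like and between -0.07 and 0.14 in the fibroblast-like class. Most fibroblast-like intervals overlap, so no order of the members is read from them. The change in epithelial-like cells minus that in fibroblast-like cells ran from -0.50 for Fis1 to -0.22 for Mief2, with a median over all promoters of -0.39. Among all promoters these differences lay between percentiles 28.7 (Fis1) and 73.5 (Mief2). The values of both classes come from the same pair of libraries and are not independent of each other.

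The level of the members moved with the share of sites that fell in promoters as a whole. In epithelial-like cells that share was 37.9% for Control and 28.8% for MOF cKO, and 41.9% and 40.9% in fibroblast-like cells. Of 10000 promoter sites in epithelial-like cells, the 10 members held 10.7 in Control and 10.2 in MOF cKO. In fibroblast-like cells they held 10.4 and 10.1. Scaled to promoter sites in place of all shared sites, the median change of the members in epithelial-like cells was -0.012 and 7 of 10 were lower, beside a median of -0.018 and 53.7% over all promoters. On that scale Dnm1l, Opa1 and Mff were slightly higher in MOF cKO, at log2 changes of 0.10, 0.04 and 0.04. What share of the difference at the members follows from the difference over all promoters was not tested.

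Within the epithelial-like class the summed level of the members was lower in each deep MOF cKO cluster, and 1 shallow cluster stood apart. The 3 Control clusters of at least 50 cells had summed member levels of 415.9, 397.2 and 400.7 CPM. In MOF cKO the 4 deep clusters had 277.6, 296.6, 315.4 and 326.8 CPM, all below the Control clusters. Their promoter shares were 27.7%, 28.3%, 30.1% and 32.4%, against 36.9%, 38.7% and 39.1% in the Control clusters. Of 10000 promoter sites the members held 10.0, 10.5, 10.5 and 10.1 in these MOF cKO clusters. In the Control clusters they held 11.3, 10.3 and 10.3, so the genotypes overlapped on that scale. Clusters of 1 library are not replicates. A shallow group of 68 MOF cKO cells, whose median depth was 18299 sites, stood apart at 466.4 CPM (416.3 to 520.9). Its promoter share was also high, at 43.6%. The unnamed cluster of 313 shallow Control cells with epithelial markers had 438.5 CPM (390.0 to 491.4) and a promoter share of 41.3%. The 39 MOF cKO cells that lay in Control clusters had 348.4 CPM (316.2 to 382.9) and a promoter share of 36.0%. In the 5 fibroblast-like groups of at least 50 cells the sum ranged from 411.7 to 446.6 CPM.

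**Figure D3:**
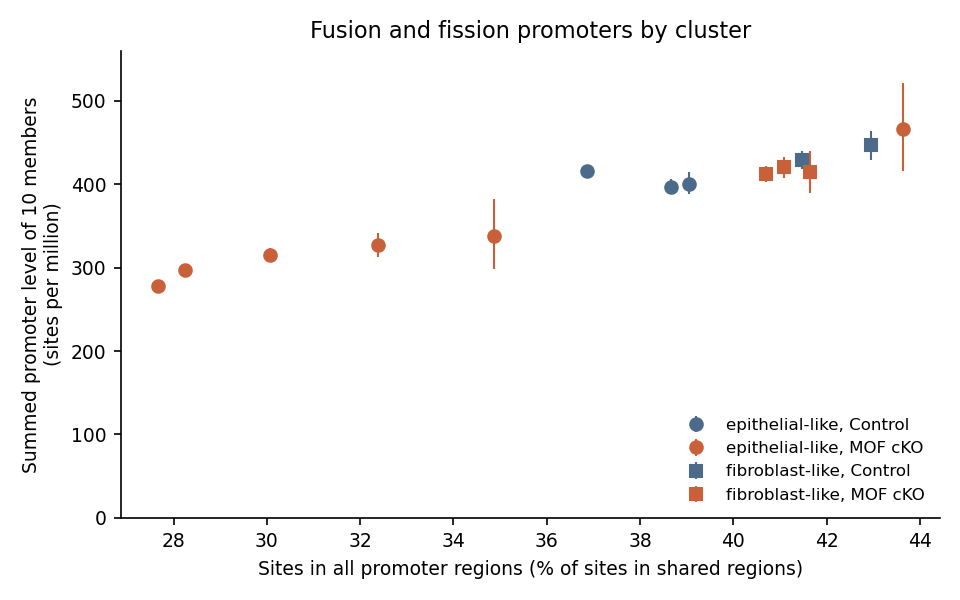
Summed promoter level of the 10 members (CPM) against the share of sites in all promoter regions for each cluster and genotype with at least 20 cells (circles epithelial-like, squares fibroblast-like, 95% counting intervals as lines, horizontal axis not starting at 0). The 4 deep MOF cKO epithelial-like clusters are at the lower left, between 277.6 and 326.8, and the shallow one of 68 cells is at the upper right with 466.4.

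Single genes followed the sum in part. Fis1 had 69.3 to 81.1 CPM in the 3 Control clusters and 45.5 to 56.7 in the 4 deep MOF cKO clusters, with 87.5 in the shallow one. Oma1 had 42.9 to 48.5 and 29.7 to 34.1 CPM, with 64.5 in the shallow cluster. Opa1 overlapped, with 25.7 to 28.9 CPM in Control and 19.6 to 27.5 in the deep MOF cKO clusters, and stood at 27.4 in the shallow one. Dnm1l overlapped as well, from 32.7 to 38.5 in Control and from 28.2 to 35.1 in the deep MOF cKO clusters. The 27.5 of Opa1 came from 83 cells with a median of 153858 sites. The 32.7 of Dnm1l came from 99 cells with a median of 154663 sites. Median depths in the other deep epithelial-like clusters ran from 68897 to 93974 sites. Apart from these deepest clusters, the highest MOF cKO level of Opa1 was 22.5 and the lowest Control level of Dnm1l was 37.3. Mff overlapped too, with 23.0 to 27.1 CPM in Control and 18.2 to 23.1 in the deep MOF cKO clusters. The 23.0 and the 23.1 came from clusters with medians of 78396.5 and 83108 sites, not from the deepest ones. In the shallow cluster, where the sum was highest, Dnm1l had 23.7 CPM (13.6 to 38.5), Mff 11.9 (5.12 to 23.4) and Yme1l1 48.9 (33.7 to 68.7). These values rest on 32, 16 and 66 sites, and their intervals include levels of the deep MOF cKO clusters.

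The levels of different genes can be compared only per length of their promoter regions. In Control epithelial-like cells Yme1l1 had the highest level, 67.3 CPM per kb, and Mfn2 the lowest, 20.6. Between them stood Mief1 (56.7), Oma1 (54.2), Fis1 (44.9), Dnm1l (41.6), Mfn1 (41.1), Mief2 (32.7), Opa1 (30.4) and Mff (27.4). The counting intervals of Mief1 and Oma1 overlapped, as did those of Dnm1l and Mfn1 and those of Mief2 and Opa1, so these neighbors are not ordered. In MOF cKO the order changed at Fis1, which stood at 29.4 CPM per kb, below Dnm1l (33.9), while its interval overlapped with that of Mfn1 (31.1). The Fis1 value pools its 2 promoter regions, and this change of order depends on that. Its upstream region alone had 30.5 CPM over 849 bp in MOF cKO. That is more per length than Dnm1l, with 30.3 CPM over 893 bp.

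**Figure D4:**
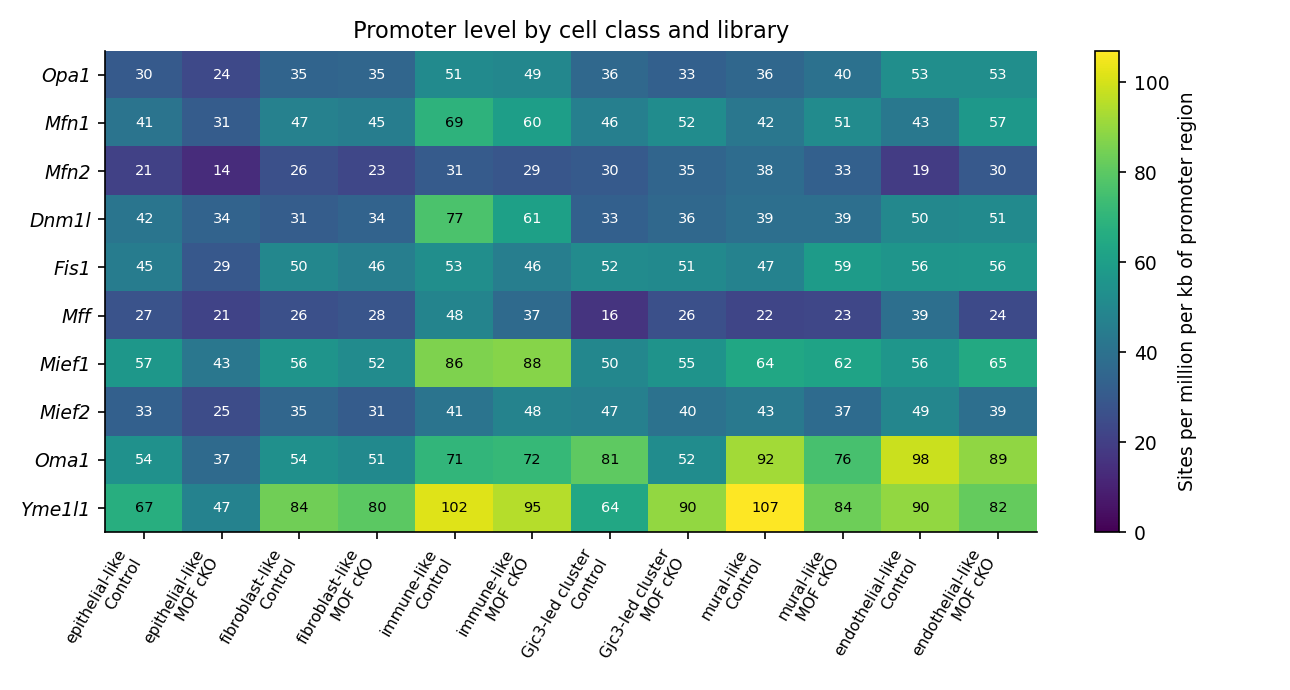
Promoter level per length (CPM per kb of promoter region, color and printed value) of each member in 5 cell classes and the Gjc3-led cluster of each library. The column of MOF cKO epithelial-like cells has the lowest value for 8 of 10 members, with Mff in Gjc3-led Control cells and Dnm1l in fibroblast-like Control cells as the exceptions.

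Across cell classes, all 10 members had a higher level in immune-like than in epithelial-like cells of the Control library, as did 64.4% of all promoters. The immune-like intervals of Mfn2, Fis1, Mief2 and Oma1 include their epithelial-like levels. How many of all promoters have such an interval was not counted, so nothing particular to the members is read from this. Opa1 had 45.5 CPM (33.0 to 61.2) in immune-like Control cells and 43.9 (38.2 to 50.3) in immune-like MOF cKO cells, above both larger classes. It had 32.1 CPM in Gjc3-led and 31.9 in mural-like Control cells, whose intervals include the level of fibroblast-like cells. Endothelial-like cells had 47.1 CPM (28.6 to 73.2) in Control, from 39 sites in 9 cells. The promoter share was higher in these groups too, from 44.1% to 50.8%.

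Dnm1l reached 68.5 CPM (52.9 to 87.2) in immune-like Control cells and 54.2 (47.8 to 61.2) in immune-like MOF cKO cells. In Control its level was 1.32-fold higher in epithelial-like than in fibroblast-like cells, a log2 ratio of 0.40 (0.27 to 0.54), where the median over all promoters was -0.17. In MOF cKO the same log2 ratio was 0.00 (-0.11 to 0.11), with a median over all promoters of -0.56. The lowest ratios in Control were those of Mfn2 at -0.35 (-0.50 to -0.19) and Yme1l1 at -0.32 (-0.41 to -0.23). Mfn1 at -0.19 (-0.31 to -0.07), Opa1 at -0.19 (-0.32 to -0.05) and Fis1 at -0.14 (-0.23 to -0.06) stood near the Control median over all promoters, -0.17. The intervals of these 5 lay below 0, as that median did. The share of all promoters with such an interval was not counted.

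Atp5g1 and Spata6 were among the genes most like the members in their profile. Over 12 groups (5 cell classes and the Gjc3-led cluster in each library) the log2(CPM + 1) levels of these genes had a Pearson r of 0.98 with the mean of the members, where the median r over all genes was 0.48. The members themselves had r of 0.60 (Mff) to 0.91 (Opa1) with this mean, which includes them. The groups share 2 libraries and differ in depth and promoter share, so these r describe likeness only.

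In sequence the members' windows, 1 counted per gene, spanned low and high GC content and had no motif common to all 10. Of the windows that overlapped a promoter region, that with the largest overlap was counted, for 10 members and 11453 genes. Ties went to the lowest coordinate, which for Dnm1l and Mfn2, on the minus strand, was the most downstream window. GC content ranged from 49.0% (Mff) to 70.3% (Dnm1l), where the median over all genes was 61.3%. Another window of Dnm1l, at its upstream start (chr16:16358982-16359281), had 53.0% and held the NF-Y motif. The GC box (GGGCGG) was present in 9 of 10 member windows and in 65.6% of all windows. The NF-Y motif (CCAAT) was present in 6 of 10, those of Opa1, Mfn1, Fis1, Mff, Mief2 and Yme1l1, and in 37.9% of all. An ETS motif (CCGGAAGT) was present in Mfn1, Fis1 and Mief1, and in 7.57% of all windows. Opa1 held an NRF1 motif (GCATGCGC, 5.16% of all windows) that is its own near-palindrome and is matched on both strands. Mief2 held an E-box (CACGTG, 10.1% of all).

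No member window counted held the estrogen-related receptor motif (AAGGTCA), found in 2.71% of all windows, or the motif of the activator protein AP-1 (TGACTCA), found in 3.87%. The same was true of the YY1 motif (AAGATGGC, 4.27% of all) and the RFX motif (GTTGCCNTG, 1.69% of all). The ZNF143 motif (ACTACAANT, 2.74% of all) was missing from these windows too. A TATA box, searched as TATAAA, was found in none of them and in 6.92% of all windows. The search covered both strands, and a motif could overlap another. The window of Mfn2 shown above matched none of the 11 motifs, although a window at another of its starts (chr4:147904860-147905159) held the GC box and the ZNF143 motif. The downstream Fis1 window, in the region with the lowest change, had a low ratio of observed to expected CpG, 0.36, against a median of 0.75.

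Within the gene bodies the distal regions differed in both directions. Regions over 2000 bp away from every annotated start were taken as distal. The 10 genes held 13 such regions with a peak in both libraries, in Opa1, Oma1, Mfn2, Dnm1l and Fis1. Their median log2 change in epithelial-like cells was 0.20, against -0.12 over 77802 such regions in all genes. Of the 13, 2 were at least 2-fold lower, against 14.3% of all, and 1 was at least 2-fold higher, against 17.4% of all. In fibroblast-like cells 12 had enough sites, with 6 at least 2-fold lower and 1 higher, against 8.28% and 11.1% of all. Many of these fibroblast values rest on few sites, such as 4 and 22 for the higher one, in Mfn2. A lower region in Dnm1l (chr16:16353274-16354331) rests on 127 and 76 sites, with a log2 change of -1.39 (-2.01 to -0.79).

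In epithelial-like cells Oma1 held the largest differences in both directions among the 13. The region at chr4:103352952-103353841, which covers 150 bases of an Oma1 exon, had 4.53 CPM in Control epithelial-like cells and 0.95 in MOF cKO, a log2 change of -2.26 (-2.61 to -1.92). The intronic region at chr4:103346838-103347691 had 1.55 CPM in Control and 4.27 in MOF cKO, a log2 change of 1.47 (1.13 to 1.81). Its neighbor within the same intron stretch, chr4:103345812-103346687, had 2.81 and 1.87 CPM, a log2 change of -0.59 (-0.90 to -0.28). In fibroblast-like cells the first 2 of these regions had 0.50 CPM or less in each library.

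The middle 200 bases of these contrasting Oma1 regions are shown on the plus strand of GRCm38, with capitals for the AP-1 motif TGACTCA on either strand. The higher region held 2 AP-1 motifs, 1 of them in the stretch shown, and the lower region held none. Of all 77802 distal regions in gene bodies, 27.6% held at least 1, and of the 13 in the members 4 did, among them 1 in Dnm1l with a log2 change of -0.012.
Oma1, higher in MOF cKO (chr4:103347165-103347364): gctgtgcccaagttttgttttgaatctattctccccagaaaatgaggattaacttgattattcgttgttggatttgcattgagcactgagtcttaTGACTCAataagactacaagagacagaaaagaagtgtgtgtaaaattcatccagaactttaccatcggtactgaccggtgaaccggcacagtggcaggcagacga
Oma1, lower in MOF cKO (chr4:103353297-103353496): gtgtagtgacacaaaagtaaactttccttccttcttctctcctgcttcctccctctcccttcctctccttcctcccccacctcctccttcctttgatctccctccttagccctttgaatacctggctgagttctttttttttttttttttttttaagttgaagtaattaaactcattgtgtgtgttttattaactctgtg

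**Figure D5:**
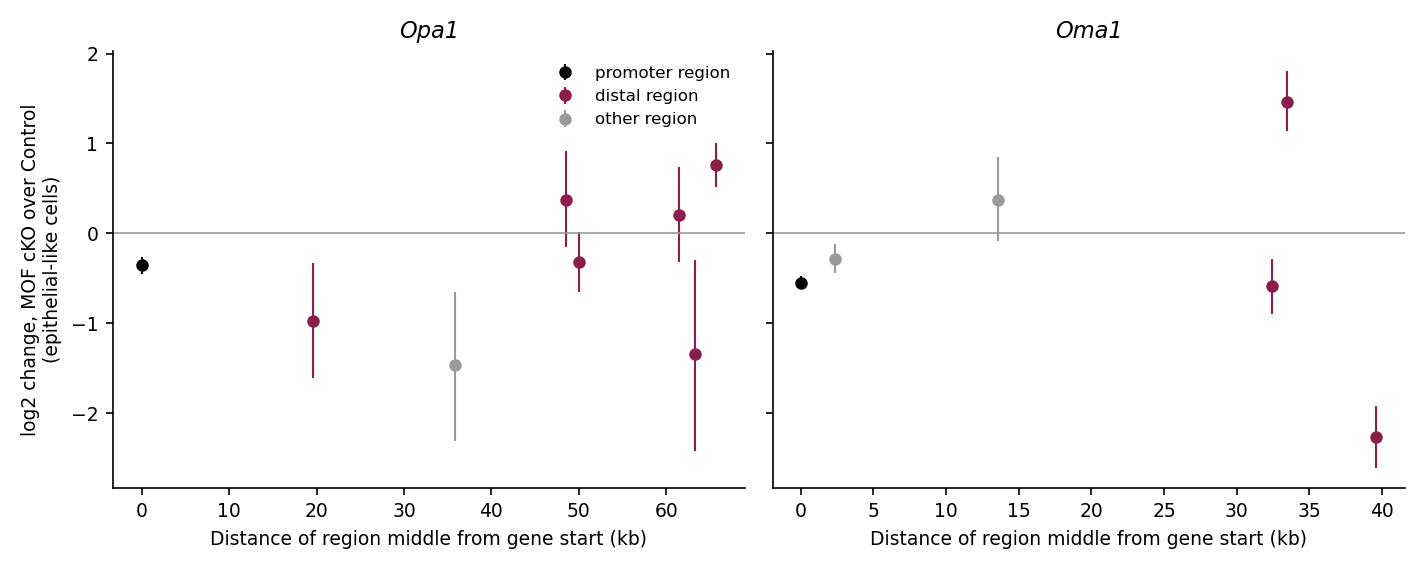
Log2 change in epithelial-like cells, MOF cKO over Control, of each region with a peak in both libraries within Opa1 (left) and Oma1 (right), by distance of the region's middle from the gene start in kb (black promoter, red more than 2000 bp from any start, grey other, 95% counting intervals as lines). The promoters lie at -0.35 and -0.55, and the distal regions spread from -2.26 to 1.47.

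Opa1, whose gene body is the longest of the 10, held 6 of the distal regions. The last of them, in an intron (chr16:29644576-29645566), in epithelial-like cells had 3.29 CPM in Control and 5.57 in MOF cKO, a log2 change of 0.76 (0.52 to 1.00). It held 1 AP-1 motif. The region at chr16:29642140-29643027 had 0.35 and 0.14 CPM, a log2 change of -1.34 (-2.42 to -0.30) from 41 and 29 sites. It was more open in fibroblast-like cells, with 4.69 and 1.82 CPM from 186 and 113 sites, and the log2 change there was -1.37 (-1.87 to -0.88). Another intronic region (chr16:29598419-29599351) was open mainly in fibroblast-like cells, with 11.8 CPM in Control and 12.6 in MOF cKO, against 0.79 and 0.40 in epithelial-like cells.

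Peaks called in 1 library alone were more often in MOF cKO. Of 22 distal regions in the bodies of the members, 13 were called in both libraries, 1 in Control alone and 8 in MOF cKO alone. The MOF cKO share of 36.4% stood beside 33.8% over all genes, and the Control share of 4.55% beside 9.84%. The MOF cKO library held 324310197 sites in peaks and the Control library 169641002. A region near the downstream end of Fis1 (chr5:136964034-136964940) had 5.69 CPM in MOF cKO epithelial-like cells and 0.16 in MOF cKO fibroblast-like cells, with no peak and so no value in Control. The peak at the downstream start of Mfn2 had 1.66 and 0.18 CPM in the same cells.

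The wider machinery of mitochondrial dynamics, 64 genes in 6 lists, stood close to the members. Their median log2 change in epithelial-like cells was -0.44, with 61 of 64 lower, 11 at least 1.5-fold lower and 0 at least 1.5-fold higher. The shares of all promoters for these counts are those given above, 85.8%, 18.4% and 4.34%. In fibroblast-like cells the median was -0.03, with 37 of 64 lower, against 58.5% of all promoters.

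Accessory fusion factors (8 genes) had a median of -0.51, from Usp30, a mitochondrial deubiquitinase, at -0.74 (-0.88 to -0.61) to Pld6, a mitochondrial phospholipase, at -0.16 (-0.30 to -0.03). Usp30 had 15.2 CPM in Control and 9.05 in MOF cKO. Accessory fission factors (12 genes) had a median of -0.33, from the ubiquitin ligase Mul1 at -0.54 (-0.63 to -0.45) to Gdap1 at 0.31 (0.06 to 0.56). Gdap1 was low in both, with 3.47 and 4.30 CPM.

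Inner membrane proteases and prohibitins (11 genes) had a median of -0.47. Afg3l2, a subunit of the m-AAA protease, was lowest at -0.68 (-0.75 to -0.61) and Parl, a rhomboid protease, highest at -0.24 (-0.35 to -0.12). Afg3l2 also had a log2 change of -0.32 (-0.43 to -0.20) in fibroblast-like cells. The cristae complex MICOS and its outer membrane partners (12 genes) had a median of -0.39, from Mtx3 at -0.72 (-0.86 to -0.58) to Chchd6 at -0.32 (-0.42 to -0.22).

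Mitophagy genes (14) had a median of -0.45 and 5 of 14 were at least 1.5-fold lower, beside 18.4% of all promoters. The same count was 3 of 12 in MICOS and its partners, 1 of 11 in the inner membrane list, 1 of 8 each among accessory fusion and motility genes, and 0 of 12 among accessory fission factors. Tbk1, a kinase of autophagy receptors, had 20.4 CPM in Control and 11.6 in MOF cKO, a log2 change of -0.82 (-0.93 to -0.70), with -0.02 (-0.17 to 0.12) in fibroblast-like cells. Mitochondrial motility genes (8) had a median of -0.36, from Armcx3 at -0.65 (-0.81 to -0.49) to the anchoring protein Snph at 0.02 (-0.16 to 0.20).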

How the data were processed

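The deposited matrices give, for every peak of a library and every barcode, a raw count of Tn5 cut sites. The authors ran cellranger-atac on each library by itself against mm10, calling peaks and cells, and applied no normalization. Both peak lists were merged, and 214119 regions with a peak in each library were kept as shared regions. Barcodes with at least 1000 sites were kept, clustered (28 singular vectors, Leiden at resolution 1, leidenalg 0.10.2) and named from marker promoters. The ending "like" marks that names rest on accessibility. No doublets were removed for the values in the report.

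Sites were summed per class and library in Python 3.11.15, scaled to sites in shared regions, and compared as log2(MOF cKO / Control) where both libraries together held at least 20 sites. Starts came from GENCODE vM21. Intervals were exact Poisson for levels and exact conditional binomial for ratios, on fragments taken as sites divided by 2. PCR duplicates and correlated sites within a cell are not covered. With 1 library per genotype no test was run. The calculation was run on simulated counts drawn from the Poisson model that the intervals assume, which checks the code and not that model. The lists of wider genes came from general knowledge, and the members and lists were chosen with earlier results of these data known. Genes named were the 10 members, the lowest and highest gene of each wider list with at least 100 sites, and the 3 genes most alike in profile, of which some are not reported here. Other peaks and regions in the text were chosen after their values were seen. Alternatives were another total, window, start, minimum, cell depth, counting, thinning, doublets and cells of the class.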

Additional observations from a re-analysis of the deposited data

Results flagged for a closer look

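Opa1, Dnm1l and Mff were lower in MOF cKO epithelial-like cells and slightly higher in MOF cKO fibroblast-like cells. The change in epithelial-like minus that in fibroblast-like cells was -0.39 for Opa1, -0.40 for Dnm1l and -0.46 for Mff on the log2 scale, where the median over all promoters was -0.39. With 1 library per genotype this difference was not tested, and the fibroblast-like intervals of all 3 genes include 0. The fibroblast-like change of each took both signs over the settings. It ran from -0.25 to 0.43 for Opa1, from -0.17 to 0.17 for Dnm1l and from -0.18 to 0.14 for Mff.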

How the results depend on the processing

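The median change of the members in epithelial-like cells was negative under all 17 alternatives, from -0.66 to -0.012. It was -0.55 scaled to all peaks of each library, -0.25 by median-of-ratios size factors, -0.51 per cell, -0.66 scaled to distal shared regions, -0.31 with each nonzero value counted once, -0.52 with cells thinned to 5000 sites and -0.012 scaled to promoter regions, an alternative chosen after seeing the data. The number of members at least 1.5-fold lower was 4 by own peaks (45% of all promoters) and per cell (34.7%), 9 by distal regions (63.4%), and 0 by median-of-ratios (7.46%), at the most 5′ start (19.6%), with nonzero values counted once (9.69%) and scaled to promoters (2.64%). It was 2, beside 19.1% to 22.4% of all promoters, when thinned, without the top 5% of doublet scores, without the shallow MOF cKO cluster and without MOF cKO cells in Control clusters, the last of these also chosen later, as was leaving out the shallow cluster. The members' median minus that of all promoters, which another total cannot move, lay between -0.006 and 0.015 in epithelial-like cells under the other alternatives and at -0.13 with thinning. Scaled to promoters, Opa1 (0.044), Dnm1l (0.10) and Mff (0.044) changed direction. In fibroblast-like cells the median was -0.36 per cell, and 2 of 10 members were lower with nonzero values counted once, where Fis1 was at 0.046. With cells thinned, Mfn2 was at 0.056 and Mief2 at 0.077. Over all settings the fibroblast-like change of Opa1 ran from -0.25 to 0.43, the widest range of the members, and that of Yme1l1 from -0.35 to 0.17. The wider lists in epithelial-like cells had medians of -0.59 by own peaks and -0.29 by median-of-ratios. The causes of these differences were not tested. No paired analysis was possible because each genotype had 1 library. Levels in the small classes rest on few sites, and no alternative covers variation between embryos.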
